A study of Mus musculus with 6 samples.

Results

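Open chromatin inside genes and away from promoters was compared between neural stem/progenitor cells (NSPCs) that carry the *Sox2* enhancer cluster SRR2-18 and NSPCs that lack it. The regions described here are the parent-only gene-body regions, which are ATAC-seq intervals listed in parent NSPCs and not in ΔSRR2-18 NSPCs. There were 25429 of them, of 82885 parent intervals and of 190365 intervals in the lists of both genotypes. They were chosen by the measured peak lists themselves: each interval stood in the parent list, shared no base with an interval of the ΔSRR2-18 list, and had its summit of highest fold enrichment inside an annotated gene and more than 1 kb from every transcription start site (TSS). Their presence in the parent and absence from ΔSRR2-18 are therefore the choice and not a result.

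ATAC-seq marks open chromatin through a transposase that inserts adapters into DNA not covered by nucleosomes, and an interval is a stretch where such insertions pile up above the local background. The parent line, Clone 5B, had the genotype Sox2-mCherry (129) on a 129S1/Cast F1 Hybrid background and no deletion. The ΔSRR2-18 line, Clone 47D, shared that background and the mCherry tag at *Sox2*, and lacked SRR2-18 on both alleles. Each genotype was 1 clone, grown as 3 cultures with EGF and bFGF on poly-d-lysine and laminin, so a difference between the genotypes and a difference between the clones cannot be told apart. The cultures of each genotype were combined in the lists, so every fold enrichment or read number is a single pooled value with no replicate error, and no test between genotypes was possible.

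*Sox2* encodes a transcription factor of the SOX family that keeps neural progenitors in a dividing, undifferentiated state. Genes used in neural cells often hold enhancers in their introns, where factors such as SOX, NFI and RFX proteins bind short sequences and open the chromatin. NFI proteins act in radial glia and astrocytes, RFX proteins in ciliated and neural cells, and POU and LHX proteins in forebrain patterning. AP-1, a dimer of JUN and FOS proteins, binds enhancers in many cell types that receive growth or stress signals.

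The parent list was checked against marker genes by whether an interval lay within 1 kb of a TSS. All 8 NSPC markers (*Sox2*, *Nes*, *Pax6*, *Sox1*, *Vim*, *Fabp7*, *Msi1* and *Hes5*) had one. Of 5 markers of pluripotent cells, *Esrrb* had one, and *Pou5f1*, *Nanog*, *Zfp42* and *Dppa5a* had none. Such an interval was present at 3 of 5 neuronal, 2 of 4 oligodendrocyte lineage and 1 of 3 astrocyte markers. The parent list held 16584 intervals at promoters, and the share of all genes with one is not given here. An open promoter does not show that a gene is expressed.

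The 9 sequences that follow show what the regions look like around their strongest summit. Each is 151 bases of the forward strand of the mm10 (GRCm38) reference, 5′ to 3′, with the summit at the central base and no annotated exon inside. Capitals mark exact matches, on either strand, to the strings used below for SOX (AACAATG or ACAATGG), the NFI core (TTGGCA), the RFX core (GTTGCCA), LHX homeodomain factors (TAATTA) and the POU octamer (ATGCAAAT). The reference is not the *castaneus* allele, so a base may differ on that copy.

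The first set lies in the DNA that ΔSRR2-18 NSPCs lack, within an intron of *Sox2ot*, the long noncoding gene that spans *Sox2*.
Sox2ot, chr3:34659922-34660072: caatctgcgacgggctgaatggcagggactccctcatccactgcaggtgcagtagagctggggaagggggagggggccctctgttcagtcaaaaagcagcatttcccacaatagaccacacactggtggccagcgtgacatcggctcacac
Sox2ot, chr3:34660641-34660791: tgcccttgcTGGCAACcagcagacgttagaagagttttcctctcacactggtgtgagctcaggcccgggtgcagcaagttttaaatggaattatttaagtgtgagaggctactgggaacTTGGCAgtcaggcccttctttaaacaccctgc
Sox2ot, chr3:34667998-34668148: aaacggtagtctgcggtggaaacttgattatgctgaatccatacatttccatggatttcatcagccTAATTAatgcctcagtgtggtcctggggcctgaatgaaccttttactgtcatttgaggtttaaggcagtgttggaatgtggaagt

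The second set comes from introns elsewhere and shows the motifs in regions of high fold enrichment. *Grm5* and *Fgd4* are among the 8 strongest parent-only gene-body regions, and *Npas3* is the neural transcription factor gene with the most of them. *Lemd1*, *Fchsd2* and *Sema3a* hold the strongest region with a SOX match beside an NFI core, with a POU octamer and with a full NFI site, and were picked after their values were seen.
Grm5, chr7:88027539-88027689: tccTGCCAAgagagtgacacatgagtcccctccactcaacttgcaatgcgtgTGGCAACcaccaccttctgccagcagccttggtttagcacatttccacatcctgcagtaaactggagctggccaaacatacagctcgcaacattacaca
Fgd4, chr16:16498926-16499076: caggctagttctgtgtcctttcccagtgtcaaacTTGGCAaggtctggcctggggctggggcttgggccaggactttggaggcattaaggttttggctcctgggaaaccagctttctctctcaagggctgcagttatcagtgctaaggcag
Npas3, chr12:53435853-53436003: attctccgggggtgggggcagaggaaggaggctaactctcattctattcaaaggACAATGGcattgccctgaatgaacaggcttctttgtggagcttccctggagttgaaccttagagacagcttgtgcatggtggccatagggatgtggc
Lemd1, chr1:132222299-132222449: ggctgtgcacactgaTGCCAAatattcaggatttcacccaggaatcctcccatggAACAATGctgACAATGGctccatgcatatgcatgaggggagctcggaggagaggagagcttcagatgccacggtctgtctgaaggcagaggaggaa
Fchsd2, chr7:101160416-101160566: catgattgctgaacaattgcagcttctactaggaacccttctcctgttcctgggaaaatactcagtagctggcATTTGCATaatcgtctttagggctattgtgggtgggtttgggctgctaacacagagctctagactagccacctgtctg
Sema3a, chr5:13151106-13151256: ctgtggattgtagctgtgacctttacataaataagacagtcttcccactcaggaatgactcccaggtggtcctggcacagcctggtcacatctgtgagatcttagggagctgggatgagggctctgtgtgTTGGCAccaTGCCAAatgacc

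Of the 40421 parent intervals in gene bodies and away from promoters, 62.9% were parent-only (95% Wilson interval 62.4 to 63.4). The share was 59.7% of the 25880 parent intervals between genes (59.1 to 60.3) and 15.2% of the 16584 at promoters (14.6 to 15.7). Such intervals cover counting error only, and intervals of 1 library pool are not replicates of a condition. In the other direction, 35635 of the 50712 ΔSRR2-18 intervals in gene bodies (70.3%) had no parent counterpart. By chromosome, the parent-only share of gene-body intervals ranged from 59.0% on chromosome 11 to 66.6% on chromosome 16.

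The fold enrichment of the parent-only gene-body regions, which is the summit pileup over the local background in the pooled parent reads, ranged from 1.33 to 37.1 with a median of 7.85. The 14992 gene-body regions shared by both genotypes had a parent median of 10.2. A parent-only region had a median of 487 reads at its summit (5th to 95th percentile 178 to 2679), against 721 in shared regions. The shared share therefore rose with strength. Parent-only intervals made up 72.5% of the lowest decile of fold enrichment (71.1 to 73.8) and 53.0% of the highest (51.5 to 54.6).

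**Figure D1:**
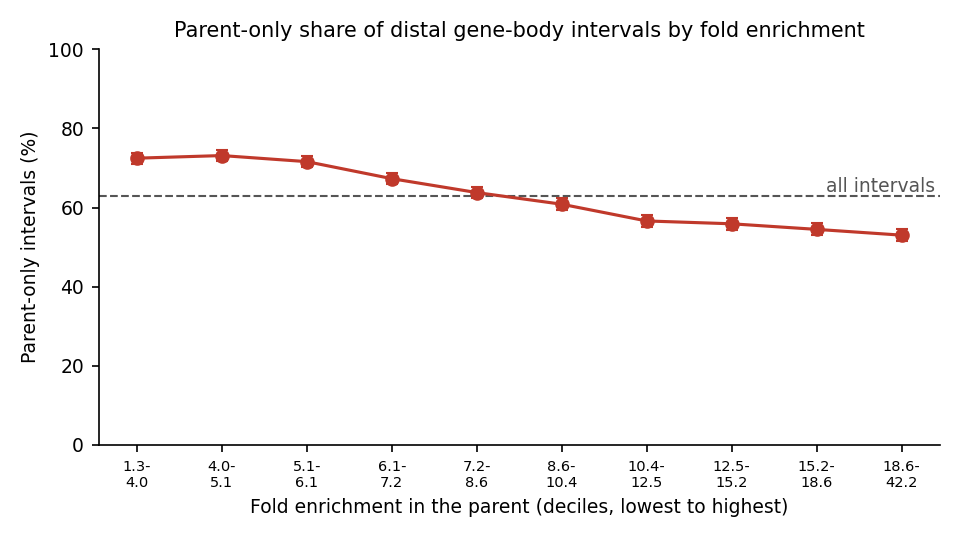
Share of parent distal gene-body intervals that were parent-only (y axis, %) against deciles of fold enrichment in the parent (x axis, range of each decile), with 95% Wilson intervals as bars and the share over all intervals as a dashed line. The points fall from 72.5% in the lowest decile to 53.0% in the highest.

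The labels give the same range of reads for the cultures of both genotypes, but the background in the lists differed. Local background, which scales with the reads used, had a minimum of 38.8 reads for the parent and of 19.7 for ΔSRR2-18, a ratio of 1.98. With this ratio taken as the difference in depth and the parent scaled down by it, 99.3% of the parent-only gene-body regions kept a −log10 p of at least 20, and 80.4% kept at least 50. At the lower limit applied to both lists, 62.8% of the parent gene-body intervals were parent-only, and at the higher one 61.4% were. The ΔSRR2-18 list was the longer one, with 107480 intervals. The part of depth in each single absence was not tested.

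The regions seldom lay right beside a ΔSRR2-18 interval, but 48.7% had one within 5000 bp and 70.4% within 10000 bp. The median gap was 5234 bp, 1863 regions (7.33%) had a ΔSRR2-18 interval within 500 bp, and 1512 (5.95%) overlapped the less strict optimal list of ΔSRR2-18. At the edge of the overlap rule, the 71 regions with a ΔSRR2-18 interval 0 to 50 bp away had a median fold enrichment of 7.002, and the 50 regions just outside, which overlapped by 1 to 50 bp, had 8.26. At the edge of the promoter rule, the 71 regions with a TSS 1001 to 1050 bp away had a median of 6.68, and the 101 parent-only intervals with a TSS 951 to 1000 bp away had 5.55.

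In ΔSRR2-18 NSPCs the deletion removes 16308 bp of chromosome 3 between the predicted cleavage sites after bases 34653746 and 34670054. There were 3 parent-only gene-body regions there, and their absence from ΔSRR2-18 is the absence of the DNA. The region at chr3:34659757-34660362, 9.59 kb downstream of the annotated start of *Sox2*, had a fold enrichment of 15.9 and 2253 summit reads. The region at chr3:34660518-34660947 was much weaker, at a fold enrichment of 2.72 with 379 reads. The third, chr3:34667797-34668304, lay 17.7 kb downstream of the *Sox2* start and had a fold enrichment of 10.2 with 947 reads. The strongest of these held no match to the 5 strings in its printed window, the weak one held an NFI core and an RFX core, and the third held a TAATTA. *Sox2ot* as a whole, annotated over 578 kb at chr3:34104270-34682619, held 29 parent-only regions, 2 shared and 12 deletion-only ones.

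The 8 strongest regions, each in another gene and outside both ΔSRR2-18 lists, had fold enrichments of 31.9 to 37.1. The highest fold enrichment, 37.1 with 2462 summit reads, was at chr8:38403362-38403983 in the first intron of *Sgcz*, a sarcoglycan gene, 152 kb from the nearest TSS. The next, 36.5 with 1734 reads, was at chr16:67598495-67599243 in the first intron of *Cadm2*, a synaptic adhesion gene. At chr10:78812442-78813155 the summit fell in a coding exon of *Slc1a6*, a glutamate transporter gene, with a fold enrichment of 36.2. The others lay in introns of *Grik1* (33.7), *Nrxn3* (33.1), *Mrps28* (32.6), *Grm5* (32.5) and *Fgd4* (31.9). *Grik1* and *Grm5* encode glutamate receptors, *Nrxn3* a presynaptic adhesion protein, *Fgd4* an activator of the small GTPase CDC42, and *Mrps28* a mitochondrial ribosome protein. Their nearest ΔSRR2-18 intervals were 19.5 to 53.0 kb away.

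Within genes, 92.1% of the parent-only regions had their strongest summit in an intron, 3.22% in a coding exon and 4.71% in an exon without coding sequence. Shared gene-body regions had 91.5%, 3.26% and 5.26%. A protein-coding gene held 90.4% of the parent-only regions. They lay farther from promoters than the shared ones: 65.9% were over 10 kb from a TSS (65.3 to 66.4), against 59.6% of shared regions (58.8 to 60.4), and 17.5% were over 50 kb away (17.0 to 17.9), against 13.3% (12.8 to 13.8). Deletion-only gene-body regions had 66.98% and 19.3%. Median GC content of the 201 bases around the summit was 50.2% in parent-only, 51.7% in shared and 45.8% in deletion-only gene-body regions.

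The rule used neither the sequence of a region nor any match in it, so motif matches could be compared. Each string was counted on both strands in the 201 bases around the strongest summit, and in 2 flanks of the same length centred 500 bp to either side. A match is a description of the letters and not a bound site. The flanks of parent-only regions had a median GC content of 44.8%, against 50.2% around the summit. Comparisons with flanks were not adjusted for this. The NFI core TTGGCA occurred in 28.4% of parent-only gene-body regions (27.8 to 28.9), in 10.4% of their flanks, in 18.8% of shared and in 11.8% of deletion-only gene-body regions. The share in parent-only regions was 1.51 times that in shared regions (95% interval 1.45 to 1.57) and 2.40 times that in deletion-only regions (2.32 to 2.48). The full NFI site, with TTGGC and GCCAA 5 bases apart, was rare, at 0.252% of parent-only regions, 0.0138% of flanks and 0.153% of shared regions.

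SOX strings were found in 9.35% of parent-only gene-body regions (8.9998 to 9.72), in 5.06% of flanks, in 6.08% of shared and in 5.47% of deletion-only regions. The ratio to shared regions was 1.54 (1.43 to 1.65). In deletion-only regions the SOX share was within counting error of that in their own flanks, with a ratio of 1.02 (0.965 to 1.07), whereas in parent-only regions that ratio was 1.85 (1.75 to 1.95).

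The RFX core GTTGCCA occurred in 6.41% of parent-only regions, 2.02% of flanks, 4.49% of shared and 1.98% of deletion-only regions. Its share was 1.43 times that in shared regions (1.31 to 1.56). RFX and NFI cores can share bases, as in a TTGGCA that runs into the reverse complement of GTTGCCA. Counting only RFX matches that touched no NFI match, the shares were 4.99% in parent-only (4.73 to 5.26), 3.69% in shared (3.40 to 4.00) and 1.46% in deletion-only regions.

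The POU octamer and the LHX string were less common. The octamer ATGCAAAT stood in 2.91% of parent-only regions and 1.39% of shared ones, a ratio of 2.09 (1.80 to 2.43), with 1.24% in flanks. TAATTA stood in 6.82% of parent-only regions and 3.59% of shared ones, a ratio of 1.90 (1.73 to 2.09), but in 6.13% of the flanks of parent-only regions. For TAATTA, then, the shared regions lay below their own flanks (5.39%), while the parent-only regions lay slightly above theirs (ratio 1.11, 1.05 to 1.18). At least 1 of these 5 motifs, of SOX, NFI, RFX, LHX and POU, was present in 44.9% of parent-only regions, 30.3% of shared, 21.1% of deletion-only regions and 22.3% of the flanks.

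AP-1 and CTCF matches went the other way in the comparison with shared regions. The AP-1 string TGAGTCA was found in 2.44% of parent-only gene-body regions (2.26 to 2.64), below the 3.12% of their flanks (ratio 0.780, 0.712 to 0.855). It was present in 10.7% of shared and 42.4% of deletion-only gene-body regions. The CTCF core, which marks binding of the insulator protein CTCF, stood in 1.95% of the parent-only and in 9.07% of the shared regions, a ratio of 0.215 (0.195 to 0.238), with 0.114% in flanks. Deletion-only gene-body regions held the CTCF core in 0.488%, so the ratio of parent-only to deletion-only regions was 4.00 (3.37 to 4.75). ZIC (CAGCAGG) and TEAD (GGAATG) strings were above flanks in both, at 12.4% and 17.7% of parent-only and 14.2% and 20.4% of shared regions. Strings of HOX with PBX (TGATTGAT or TGATTTAT) and of posterior HOX and CDX factors (CCATAAA) stood in 0.975% and 1.54% of parent-only regions and in 3.17% and 3.70% of deletion-only regions. In shared regions they stood in 1.23% and 1.95%. The flanks of parent-only regions held them in 1.60% and 2.88%, and those of deletion-only regions in 1.97% and 3.16%. Parent-only regions thus lay below their own flanks for both strings.

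**Figure D2:**
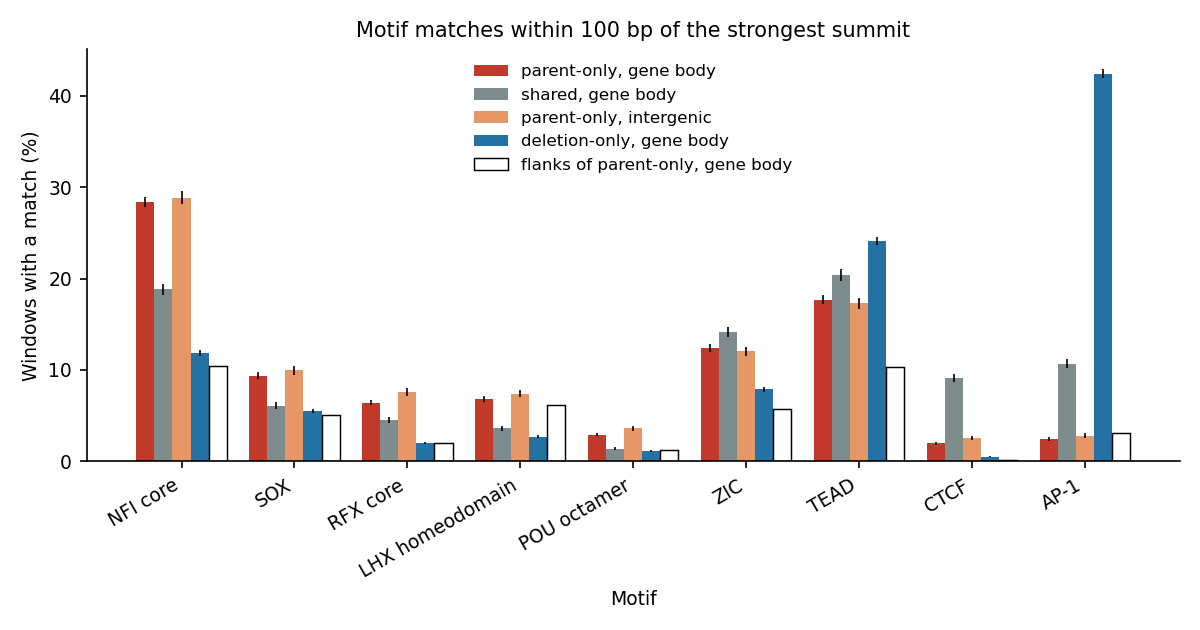
Share of 201 bp windows around the strongest summit that held a match (y axis, %) for 9 motifs (x axis), with 95% Wilson intervals on all but the open bars. Red bars are the parent-only gene-body regions, open bars their flanks and orange bars the parent-only intergenic regions: NFI, SOX, RFX and POU matches stand above the grey shared regions, and AP-1 matches, at 42.4% of the blue deletion-only regions, are at 2.44%.

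Parent-only regions outside genes held NFI and SOX matches about as often. In the 15440 parent-only intergenic regions the NFI core was found in 28.8%, SOX strings in 9.94%, the RFX core in 7.60% and AP-1 in 2.81%. The ratio of gene-body to intergenic regions had a 95% interval that held 1 for NFI (0.985, 0.954 to 1.02) and for SOX (0.941, 0.886 to 1.00). For RFX it was 0.843 (0.784 to 0.906) and for the octamer 0.811 (0.728 to 0.903), so both were less frequent in gene bodies.

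At the summit of parent-only regions NFI, SOX, RFX and POU octamer matches were concentrated, and LHX and AP-1 matches were not. In parent-only regions the NFI core occurred 1.87 times per kb within 50 bp of the summit and 0.556 times per kb at 400 to 600 bp, and in shared regions 1.11 and 0.545 times. SOX matches fell from 0.669 to 0.304 per kb and RFX matches from 0.403 to 0.103 per kb over the same distances in parent-only regions. Octamer matches fell from 0.157 to 0.0647 per kb. In deletion-only regions SOX and RFX matches were flat, at 0.320 and 0.322 per kb and at 0.106 and 0.0984 per kb. In parent-only regions LHX matches stood at 0.349 and 0.341 per kb, and AP-1 matches were fewer near the summit, at 0.129 against 0.159 per kb. AP-1 matches were concentrated at the summit of shared regions, at 0.643 against 0.206 per kb, and of deletion-only regions, at 3.34 against 0.187 per kb.

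**Figure D3:**
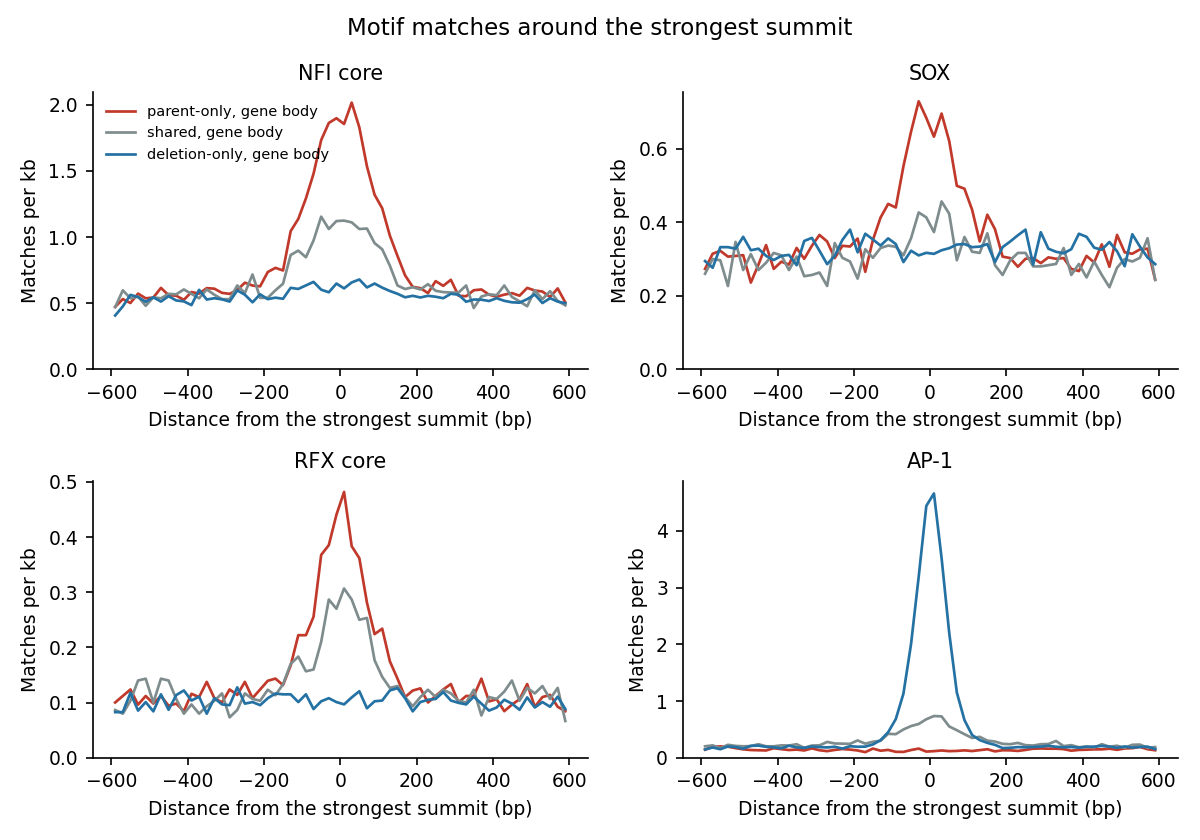
Matches per kb (y axis) in 20 bp bins by distance from the strongest summit (x axis, bp) for the NFI core, SOX, the RFX core and AP-1, in parent-only (red), shared (grey) and deletion-only (blue) gene-body regions. NFI, SOX and RFX matches peak at the summit of parent-only regions, where AP-1 matches stay near 0.129 per kb.

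The motif differences from shared regions were also read within quintiles of GC content, with limits set on the parent-only regions alone. The ratio of parent-only to shared was above 1 in all 5 quintiles, with its 95% interval, for NFI (1.34 to 1.86), SOX (1.27 to 1.81) and LHX (1.56 to 1.78). For RFX the interval held 1 in the second quintile (1.04, 0.866 to 1.26) and for the octamer in the fourth (1.33, 0.908 to 1.95) and the fifth (1.06, 0.602 to 1.88). AP-1 and CTCF stayed below 0.300 in every quintile.

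Within the parent-only regions, motif shares differed with fold enrichment. From the lowest to the highest quintile of fold enrichment, the NFI share went from 24.9% (23.7 to 26.1) to 32.4% (31.2 to 33.7), the RFX share from 5.31% (4.73 to 5.96) to 8.14% (7.42 to 8.92) and the SOX share from 7.85% (7.14 to 8.62) to 10.8% (9.97 to 11.7). The CTCF share went from 2.46% to 0.315%. AP-1 moved little, from 2.50% (2.10 to 2.96) to 2.20% (1.83 to 2.64).

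In a count of all 7-base words, with no motif given, several words that hold the NFI core were in excess of the flanks. CTTGGCA was in 13.7% of parent-only regions and 3.70% of flanks, CTGCCAA in 12.3% and 3.46%, and GTGCCAA in 6.97% and 2.08%. GCTGGCA, which differs from the core, was in 13.4% and 3.86%. In shared regions these 4 words stood in 8.92%, 8.43%, 3.89% and 8.92%. GC-rich words such as GGCGCCC were also in excess of flanks but were rarer in parent-only (1.03%) than in shared regions (2.67%).

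The regions were spread over many genes. Of 21055 protein-coding genes with gene body beyond 1 kb of a TSS, 6926 (32.9%) held at least 1, and 499 genes with 10 or more held 35.0% of the regions counted by gene. A region in overlapping genes counted in each. The chance to hold one followed length: 2.59% of genes in the shortest quintile and 77.1% in the longest did, at 13.3 and 24.0 regions per Mb of gene body. Of the 6926 host genes, 4813 (69.5%) also held a deletion-only region, against 8250 (39.2%) of all 21055 genes. The host genes were longer, with a median of 55.7 kb against 11.2 kb for genes without a region.

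The gene models with the highest counts, *Gm20388* with 164 and *Fgfr2* with 92, are annotated over 4435 and 2961 kb and contain 71 and 29 other protein-coding genes, so their counts belong to many genes. Next came *Nav2*, a gene of neurite outgrowth, with 61 parent-only, 14 shared and 26 deletion-only regions. *Npas3*, a neural transcription factor gene, had 56, 17 and 33, and *Auts2*, a neurodevelopmental regulator, 51, 25 and 48. *Dab1*, an adaptor of reelin signaling, had 48, 7 and 18. *Dscam*, an adhesion gene of neuronal self-avoidance, had 44, 3 and 12, so that 93.6% of its parent gene-body intervals were parent-only. The share over all parent gene-body intervals was 62.9%, and genes ranked by parent-only counts favour a high share. *Zbtb20*, a transcription factor gene of hippocampal and glial development, had 41, 10 and 24, *Gse1* 39, 19 and 13, and *Msi2*, an RNA-binding protein gene of neural progenitors, 37, 18 and 20.

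**Figure D4:**
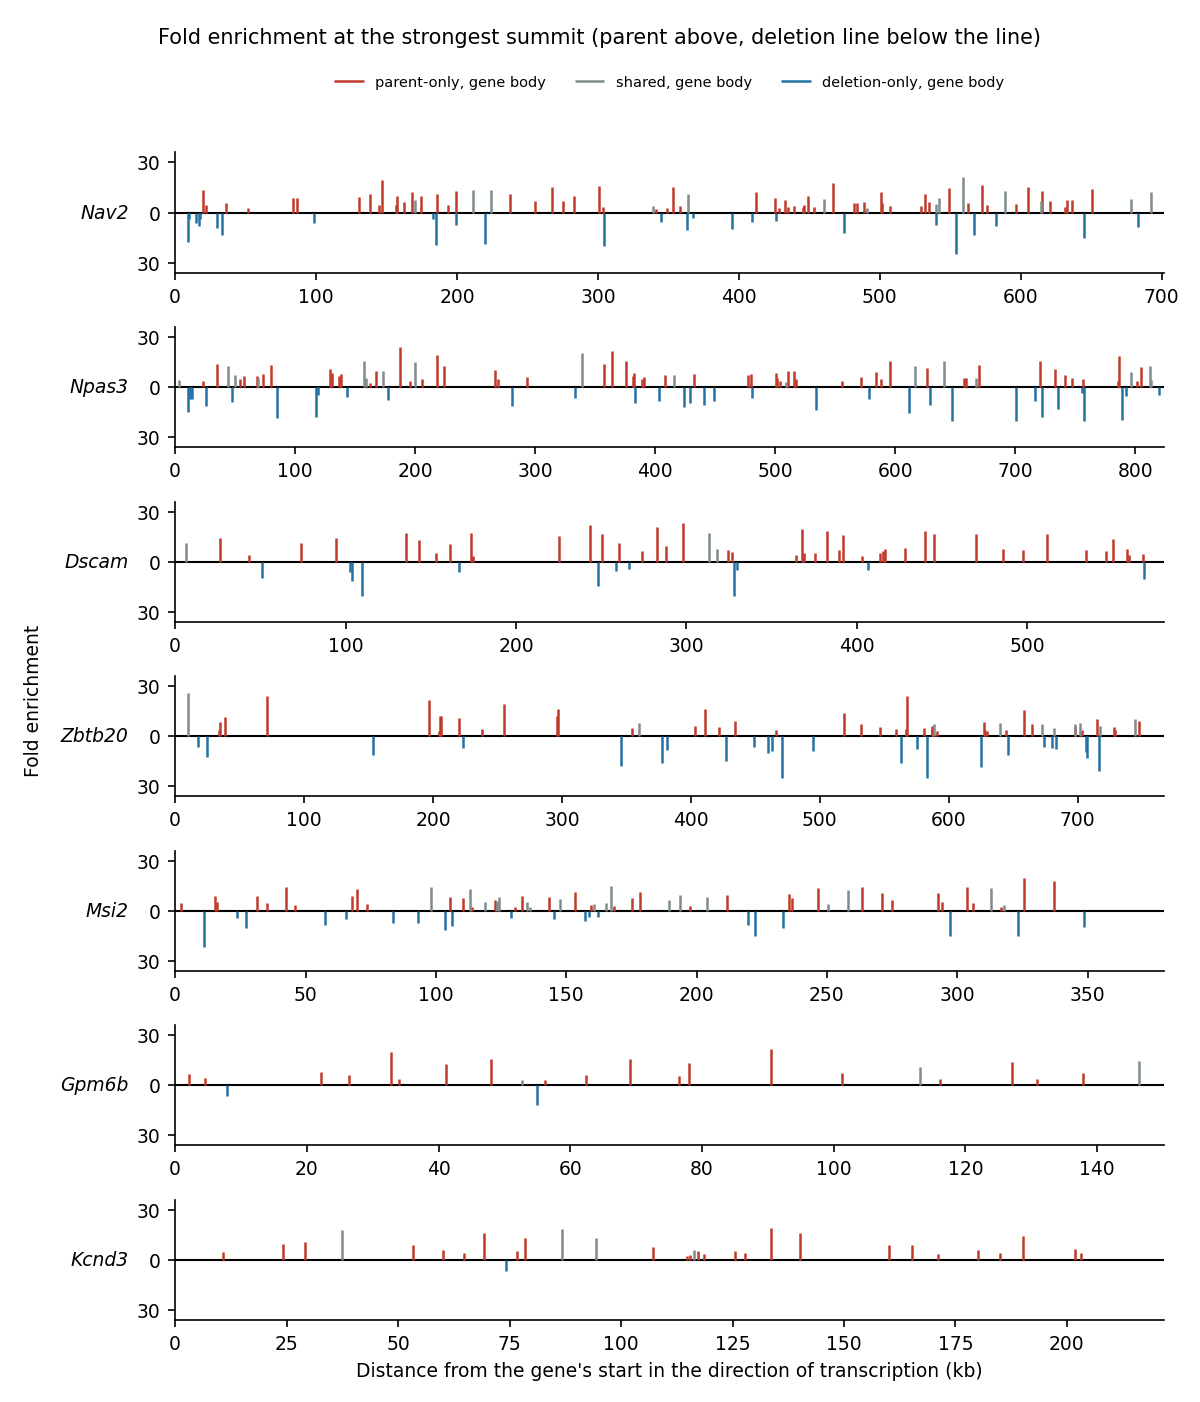
Strongest summits along 7 genes, with distance from the gene's start on the x axis (kb) and fold enrichment on the y axis, parent intervals above the line (red parent-only, grey shared) and deletion-only intervals below it (blue). In *Dscam*, 44 red lines stand against 12 blue ones, and in *Kcnd3* 26 against 1. The 7 genes were among those named for their many parent-only regions, which favours red lines.

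Density was also ranked by gene, which favours genes near the minimum length. Among the 1390 genes with at least 5 parent-only regions and 20 kb of gene body, *Irs2*, an adaptor of insulin receptor signaling, had 27.1 per 100 kb, from 6 regions. *Gprc5b* had 24.8, *Tcf3*, an E-protein gene, 23.8, *Lasp1* 23.6 and *Rab20* 23.4 per 100 kb. *Igfbp2*, which encodes a secreted binder of insulin-like growth factors, had 22.9, *BC034090* 21.8, *Gas6*, a ligand of TAM receptors, 21.3, *Adgrg1* 19.7 and *Zfhx2* 19.3. These counts are 5 to 9 regions each. Over all protein-coding genes the density was 23.3 per Mb, not per 100 kb, and so far lower than each of these.

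Gene lists were read as counts per Mb of gene body, beside the density of deletion-only regions in the same genes. Over all protein-coding genes there were 23.3 parent-only and 31.5 deletion-only regions per Mb, or 0.740 parent-only for each deletion-only region. Genes of radial glia and astrocytes, the stem cells of the developing cortex and their glial descendants, had 43.6 and 37.6 per Mb. Their 95% Poisson intervals, 37.8 to 50.0 and 32.3 to 43.6, overlapped. The densities gave a ratio of 1.16, and 34 of 45 genes held a region. The ratio was 1.07 for genes of Notch, FGF, WNT, BMP and hedgehog signaling (38.8 and 36.4 per Mb, 45 of 50 genes). Here too the intervals overlapped, at 34.8 to 43.2 and 32.5 to 40.6. Without the long *Fgfr2* model, a setting chosen after seeing the data, the ratio was 1.13. Neural transcription factors had 40.7 (37.6 to 43.9) and 43.0 per Mb, a ratio of 0.946, with 52 of 60 genes. Over all protein-coding genes 32.9% held a region, and in the longest quintile of gene length, from 57200 bp, 77.1% did. Median gene lengths were 29.8 kb for radial glia, 78.5 kb for signaling and 195 kb for neural transcription factor genes. The gene counts of the lists were not adjusted for length. The Poisson intervals cover counting error only, and the genes of a list differ in length and share no common sampling.

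In the radial glia list, *Msi2* was followed by *Gpm6b*, a membrane glycoprotein gene, with 19 parent-only and 2 deletion-only regions, and by *Tnik*, a kinase gene of WNT signaling, with 16 and 8. The strongest region of *Gpm6b*, chrX:166328342-166329593 in an intron, had a fold enrichment of 21.8 and 4557 summit reads. That of *Tnik*, chr3:28333573-28334341, had 21.6 and 3286 reads, and that of *Msi2*, chr11:88392503-88393183, had 19.5 and 1825 reads. The neural transcription factor list also holds *Auts2*, named above as a neurodevelopmental regulator. In this list, the strongest region of *Npas3*, chr12:53435178-53436141, had a fold enrichment of 23.8 and 1868 reads. In *Zbtb20* it was chr16:42946954-42947516 with 24.2 and 962 reads, and in *Auts2* chr5:131774908-131775973 with 17.6 and 1592 reads. In the signaling list *Fgfr2*, *Maml2*, a Notch coactivator gene, with 31 regions and *Daam1* with 18 held the most.

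Genes for the motif-binding families were read beside these, chosen after their values were seen. *Nfia* held 29 parent-only, 10 shared and 28 deletion-only regions, *Nfib* 28, 14 and 21, and *Nfix* 13, 7 and 5. *Sox5* held 28, 10 and 46, *Sox6* 26, 9 and 15, and *Rfx3* 7, 2 and 9. *Rfx4*, an RFX gene of the neural tube and radial glia, held 12 parent-only, 4 shared and no deletion-only region.

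Lists of neuronal genes had fewer regions per Mb than these 3 lists. Median gene lengths in the neuronal lists ran from 90.7 to 421 kb. In the longest quintile of gene length, 77.1% of all genes held a region. Axon guidance genes had 27.9 parent-only and 37.1 deletion-only regions per Mb (46 of 51 genes, *Sema6d* 30, *Sema5a* 23, *Robo1* 22). Potassium and calcium channel genes had 19.9 and 29.9 (39 of 46), where *Kcnd3*, a potassium channel gene, had 26 parent-only regions and 1 deletion-only region, *Cacna1c* 23 and 24, and *Cacna2d1* 18 and 16. Neural adhesion genes had 14.2 and 19.5 (54 of 68), led by *Dscam*, *Opcml* with 34 and *Cdh4* with 33. Glutamate receptor genes had 13.9 and 18.1 (20 of 26), with 15 regions in *Grik4* and 14 in *Grid1*. GABA and glycine receptor genes had the lowest density of the 11 lists, 5.54 (3.38 to 8.56) against 17.2 deletion-only regions per Mb, with 7 of 25 genes holding one, of which *Gabbr2* held 11 of the 20 regions and *Glra4* and *Gabra2* held 2 each.

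Against 0.740 parent-only regions for each deletion-only region over all genes, the ratio was 0.323 for GABA and glycine receptors, 0.667 for channels, 0.727 for adhesion, 0.752 for axon guidance and 0.766 for glutamate receptors. It was 0.671 for cytoskeleton and polarity genes and 0.644 for integrins, laminins and collagens. Cytoskeleton and cell polarity genes had 32.3 parent-only and 48.2 deletion-only regions per Mb, with 41 of 47 gene models holding one, and *Arhgap26* (31), *Pard3* (25) and *Pard3b* (21) in front. Integrin, laminin and collagen genes had 31.8 and 49.3 (41 of 48), led by *Itga9* with 20, *Col5a1* with 12 and *Lama3* with 11. The Hox clusters and Cdx genes, which set posterior identity, had 31.0 (13.4 to 61.0) and 85.1 per Mb (53.3 to 129), a ratio of 0.364. Of these 42 genes, which had a median length of 3.52 kb, 5 (11.9%) held a parent-only region, 8 in all, with 3 in *Hoxa3*, 2 in *Hoxd3* and 1 in *Hoxa5*, and overlapping Hox models can count a region more than once. In the shortest and second quintiles of gene length, 2.59% and 12.2% of all genes held one, and in the longest quintile 77.1% did.

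**Figure D5:**
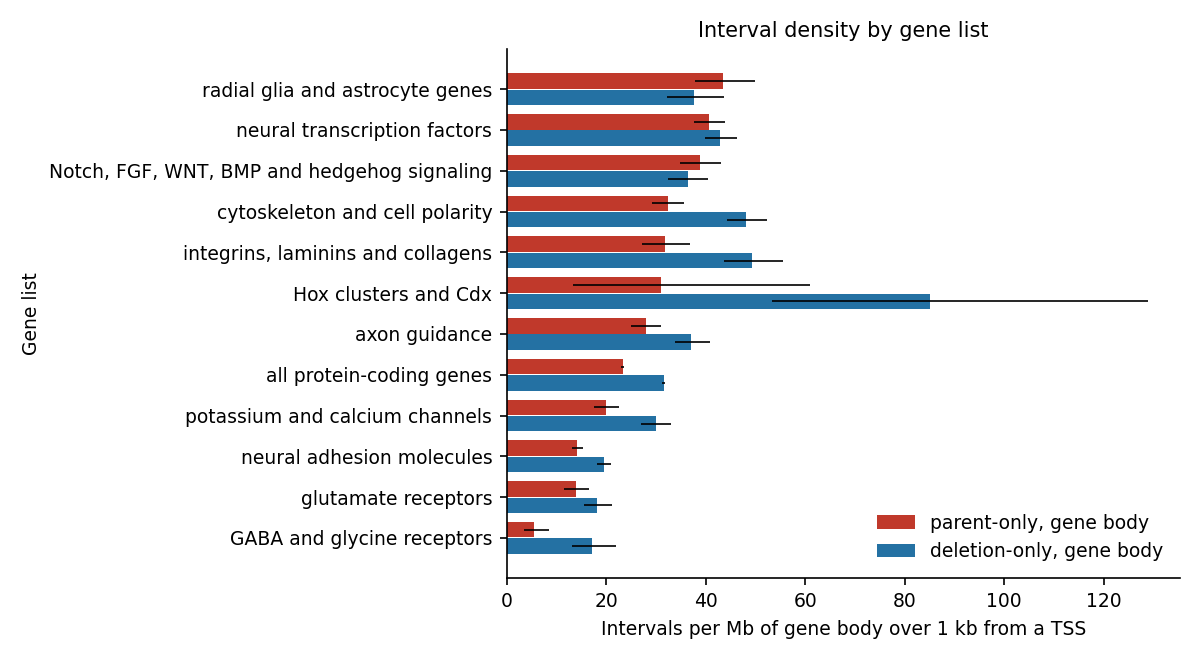
Parent-only (red) and deletion-only (blue) gene-body regions per Mb of gene body over 1 kb from a TSS (x axis) for 11 gene lists and all protein-coding genes (y axis), with 95% Poisson intervals. Radial glia and signaling genes have a longer red than blue bar, at 43.6 against 37.6 and 38.8 against 36.4 per Mb, and Hox and Cdx genes have 31.0 against 85.1. The red and blue intervals overlap in each of these lists.

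Of the 6926 host genes, 2113 held no deletion-only region in the same gene body. A deletion-only region was held by 69.5% of host genes and by 39.2% of all 21055 genes, so host genes lacked one less often than genes at large. The genes named next were picked for that pattern, which is given as a description. There were 12 genes with at least 8 parent-only regions and no deletion-only one, with *Prex1* (18), a RAC activator gene, *Eipr1* (13), *Rfx4* (12), *Myo18a* (11) and *Wnk2* (11) the highest. *Ptch1*, the hedgehog receptor gene, had 8. There were 15 genes with at least 5 parent-only regions and neither shared nor deletion-only ones. They include *Wnk2*, *Igfbp2*, *Gas6*, *Tcf3*, the glutamate receptor gene *Grm3* with 7, the zinc finger gene *Myt1* with 6, and the transporter gene *Slc6a11* with 5. In reverse, 76 genes had at least 8 deletion-only regions and no parent-only one. Among noncoding hosts after *Sox2ot*, *Pvt1* held 19 parent-only and 26 deletion-only regions, and the antisense gene *4933432K03Rik* held 15 parent-only regions with none of the other kinds.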

How the data were processed

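The authors made ATAC-seq libraries from 3 cultures of each of 2 genotypes, with 30000 cells per culture per the labels. The reads were processed by the authors with the ENCODE ATAC-seq pipeline, peaks were called with MACS2, and the cultures of a genotype were combined by the irreproducible discovery rate (IDR). The 4 deposited peak lists are in mm10. For each summit the authors deposited an IDR score (540 at an IDR of 0.05, at most 1000), a fold enrichment as a ratio to local background, and −log10 of the p-value, all on pooled reads. The −log10 q column was not used. The depth of single cultures was not recovered because the lists pool them. Reads of the *castaneus* copy of each autosome differ from the reference and may be mapped at a lower rate, and alleles are not told apart in the lists.

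The conservative lists were used, as in the study's methods. Repeated intervals were reduced to the summit with the highest fold enrichment. Summit reads, which are pileup heights, and background were solved from fold enrichment and −log10 p, and the summit reads were within 0.05 of a whole number in 100% of intervals. The lowest background of each list gave the depth ratio. Annotation was GENCODE M21 basic and sequence GRCm38.p6 from RefSeq. The host of a region was the shortest protein-coding gene over its summit, and the gene counts used every gene over it. All 20 motifs were matched exactly. The members and the 11 gene lists (507 entries) were chosen with earlier results of these data known. Named genes were the 3 of each list with the most regions, the 10 with the most regions, the 10 densest, the 8 strongest regions at 1 per host outside both ΔSRR2-18 lists, and all regions in the deletion. The 10 words were those with the highest ratio to flanks among words in at least 1% of regions. Some items of these rules are not reported here. Shares carry 95% Wilson intervals, and ratios 95% intervals on the log scale. Analyses used Python 3.11.15, numpy 2.4.6, pandas 2.3.3, scipy 1.17.1 and matplotlib 3.10.9, and the functions were tested on simulated data. Alternatives covered the list, threshold, overlap, distance, depth, annotation and motif window.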

Additional observations from a re-analysis of the deposited data

How the results depend on the processing

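The number of parent-only gene-body regions, 25429, stayed within 1.5 times under all 12 alternatives, from 20901 to 28534. The parent-only share of 62.9% moved outside its counting interval under 8 of 12. It was 61.2% with the optimal lists, 59.2% with absence judged on both ΔSRR2-18 lists, 64.0% at an IDR score of at least 830, 63.9% with promoters of 2.5 kb, 67.9% with 50% reciprocal overlap, 58.3% with a ΔSRR2-18 interval within 500 bp counted as shared, 61.4% at the scaled −log10 p limit of 50, and 70.6% with the ΔSRR2-18 list shortened to the parent's number. The shortened list also gave SOX, NFI and AP-1 shares of 8.95%, 27.3% and 2.70%, reciprocal overlap an AP-1 share of 2.76%, and the limit of 50 an NFI share of 28.9%. With windows of 50 bp to either side, which hold fewer bases, the 3 shares were 5.30%, 16.8% and 1.25%. At that same −log10 p limit, shared regions had 5.97% SOX, 18.7% NFI and 10.4% AP-1. No paired analysis was possible because the lists pool the cultures and carry no replicate numbers, and for the same reason no replicate could be left out. A region's absence from a list is not a measured level of 0.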
